A study of Mus musculus with 4 samples.

Results

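The Siglec family is described here in mouse bone marrow-derived dendritic cells through 7 genes chosen by name: Siglec1, Cd22, Cd33, Siglece, Siglecf, Siglecg and Siglech. Of these, 5 were listed in at least 1 of 3 deposited tables, among 13685 genes listed in all, while Siglecg and Siglech were listed in none. Siglec1, Cd22, Cd33 and Siglece had values in all 4 libraries, and Siglecf had values in 3.

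Siglecs are cell-surface lectins of the immunoglobulin superfamily that bind sialic acids at the ends of sugar chains. Many carry inhibitory tyrosine motifs (ITIMs) in their cytoplasmic tails, which recruit the phosphatases SHP-1 and SHP-2, and others pair with the activating adaptor DAP12. On dendritic cells and macrophages they are known for damping receptor signalling and for capturing sialylated particles.

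Bone marrow was taken from C57BL/6 mice at an age of 4 weeks. Its cells were cultured for 7 days in GM-CSF (10 ng/ml) together with IL-4 (10 ng/ml), a culture that gives dendritic cells together with macrophage-like cells. There were 4 groups. One received Wnt2, a secreted Wnt ligand. One received the culture medium of CAFs (CAF.CM, where CAF usually stands for cancer-associated fibroblast) after incubation of that medium with a Wnt2 antibody. One received CAF.CM alone, and the last was kept in control medium without treatment. The sources used here give neither the dose of Wnt2 nor the length of treatment nor the origin of the CAFs.

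Each group has 1 column of values, called a library below. The series speaks of triplicates, and the sources used here do not say whether a column pools several cultures. No difference below therefore has a replicate check, and the study's own comparisons carry no test here. Levels are in CPM (reads per 1e+06 reads of the library size scaled by the authors). Ratios are log2 ratios of the first library named over the second, with a prior count of 2 added, and their 95% intervals are exact binomial intervals that cover counting error only. The words called higher and called lower stand for a ratio of 2-fold or more. The Wnt2 and control libraries held 154399767 and 143071376 reads in listed genes, and the antibody and CAF.CM libraries held 22791494 and 25225220, so that low values are less precise in the last 2. In each table every listed gene has about 1 CPM or more in at least 1 library. A gene that is not listed lies below that level in both libraries or was left out of the material used here, and it is not shown to be unexpressed.

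Of the conventional dendritic cell markers, 12 of 13 were listed, and their summed level was 787.2 CPM with Wnt2, 1583 CPM with the antibody, 1731 CPM with CAF.CM and 3363 CPM in control medium. Macrophage and monocyte markers were listed in 14 of 14 cases, with sums of 21170, 6702, 9663 and 29564 CPM in the same libraries. Lyz2 made up most of each of these sums, and 32.8% of its 31-base words are shared with other genes. With CAF.CM 8 of the 14 were lower than in control medium and 2 higher, Cd14 and Ly6c2. Both sums were highest in control medium and moved with several results below, and their part in those results was not tested. In such bulk RNA, fewer cells of a type and less RNA per cell cannot be told apart.

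The genes lie on 2 chromosomes (GRCm38, GENCODE M21). Siglec1 is on chromosome 2 (chr2:131069220-131086765, minus strand). The other 6 are on chromosome 7. Cd22 lies at chr7:30865402-30880342 on the minus strand, and Siglech at chr7:55768178-55778925 on the plus strand. Between them is a cluster with Siglecf (chr7:43351341-43359531, plus strand), Siglecg (chr7:43408204-43418358, plus strand), Cd33 (chr7:43524216-43544428, minus strand) and Siglece (chr7:43651070-43660161, minus strand). From the start of Siglecf to the end of Siglece this cluster spans 308.8 kb.

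The promoters of Siglecf and Cd33 are shown because these 2 genes of the cluster resemble each other there yet differed in the values that follow. Each sequence runs from 250 bases before to 50 bases after the RefSeq start (GRCm38.p6). The starts of Cd33 and Cd22 in RefSeq lie inside the gene intervals given above. Each sequence is printed 5′ to 3′ on the gene's own strand, with the stretches of 12 or more bases that both share in capitals.
Siglecf promoter, chr7:43351091-43351390, plus strand: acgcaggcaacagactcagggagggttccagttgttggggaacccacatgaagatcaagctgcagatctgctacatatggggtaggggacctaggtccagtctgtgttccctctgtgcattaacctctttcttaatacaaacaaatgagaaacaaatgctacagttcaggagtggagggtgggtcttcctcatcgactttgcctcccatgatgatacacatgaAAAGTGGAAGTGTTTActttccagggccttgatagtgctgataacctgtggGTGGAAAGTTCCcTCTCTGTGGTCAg
Cd33 promoter, chr7:43533122-43533421, minus strand: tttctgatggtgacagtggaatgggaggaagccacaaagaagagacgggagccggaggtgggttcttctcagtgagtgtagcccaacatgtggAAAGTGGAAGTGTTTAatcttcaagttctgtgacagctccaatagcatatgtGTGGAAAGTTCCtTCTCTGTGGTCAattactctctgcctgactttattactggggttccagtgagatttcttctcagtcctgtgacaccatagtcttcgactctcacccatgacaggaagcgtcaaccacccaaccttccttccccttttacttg
The longest stretch has 16 bases, and these are the 2 promoters, of 32851 in the RefSeq table, that hold it on either strand. No other pair of the 6 members with a promoter entry shared 12 bases in a row.

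The Siglece promoter is shown for the purine-rich core of sites bound by PU.1, a factor of myeloid cells. The letters searched were GAGGAA on both strands, and matches are in capitals.
Siglece promoter, chr7:43660112-43660411, minus strand: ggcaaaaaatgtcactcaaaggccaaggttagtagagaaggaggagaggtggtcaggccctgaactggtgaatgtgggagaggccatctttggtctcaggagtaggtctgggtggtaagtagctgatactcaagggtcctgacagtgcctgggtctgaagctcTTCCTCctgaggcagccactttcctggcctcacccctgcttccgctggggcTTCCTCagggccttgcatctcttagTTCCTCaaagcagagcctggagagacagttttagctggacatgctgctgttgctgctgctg
It holds these letters 3 times, while the Siglecf and Cd33 promoters hold them 1 time each and the Cd22 promoter does not hold them. Among all promoters of this length, 28.3% hold them at least 1 time. The other 5 motifs were searched on both strands in the windows of all 6 members with an entry, of which Siglecg has 2. An interferon-response motif (held by 3.44% of all promoters), an NF-kappaB motif (1.63%) and an AP-1 motif (TGANTCA, 7.81%) were found in none of them. A STAT motif (TTCNNNGAA, 8.30%) was found 1 time, in the Siglech window, and the GATA motif (GATAA, 25.4%) 1 time, in the Siglecf window. The PU.1 letters stood 1 time in the Siglech window and 2 times in 1 of the Siglecg windows. A match or its absence describes these letters only.

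Levels in the 4 libraries are given first. Cd33, a receptor of myeloid cells that in the mouse can pair with DAP12, was the most abundant member in every library. It stood at 107.5 CPM with Wnt2, 56.5 CPM with CAF.CM plus antibody, 117.6 CPM with CAF.CM and 82.4 CPM in control medium. Its level was thus highest in CAF.CM and lowest in the same medium with antibody.

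Cd22, best known as an inhibitory receptor of B cells, had 28.1 CPM with Wnt2, 7.28 CPM with antibody, 10.2 CPM with CAF.CM and 42.6 CPM in control medium. Both CAF.CM libraries were low and control medium was high, with Wnt2 between them.

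Siglec1, also named sialoadhesin or CD169, is a macrophage receptor without ITIMs that captures sialylated particles and is a known interferon-induced gene. It was at 12.01 CPM with Wnt2, 3.84 CPM with antibody, 24.3 CPM with CAF.CM and 17.2 CPM in control medium. The antibody library was the low one, at 89 reads, and CAF.CM the high one, at 632 reads.

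Siglece encodes an ITIM receptor of neutrophils, macrophages and dendritic cells that restrains Toll-like receptor responses. Its level was 0.866 CPM with Wnt2, 5.86 CPM with antibody, 12.8 CPM with CAF.CM and 1.64 CPM in control medium. Here both CAF.CM libraries were high and both others low.

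Siglecf encodes an ITIM receptor known from eosinophils and alveolar macrophages. It reached 1.73 CPM with Wnt2, 0.192 CPM with CAF.CM and 11.4 CPM in control medium, and it was not listed in the table with the antibody library. The CAF.CM value rests on 5 reads, with an exact Poisson interval of 0.0623 to 0.448 CPM, so that its distance from the other libraries is known only roughly.

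**Figure D1:**
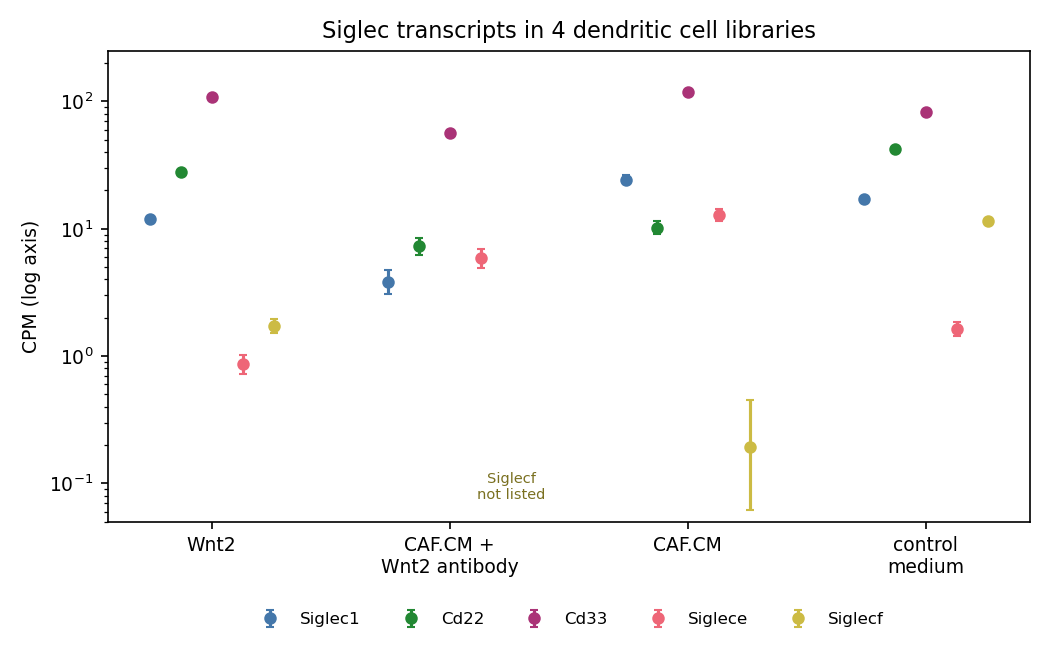
Level of each listed Siglec gene (CPM, log axis) in the 4 libraries, 1 point per library, with bars for the exact 95% Poisson interval of counting error. Cd33 is the highest point in every library, Siglece is higher in both CAF.CM libraries than with Wnt2 or in control medium, and Siglecf lies at 0.192 CPM with CAF.CM, far below its 11.4 CPM in control medium.

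Since longer transcripts collect more reads, the order of the members was taken per kilobase of the longest annotated transcript. With Wnt2 the order was Cd33 (18.8 CPM per kb), Cd22 (7.08), Siglec1 (1.88), Siglecf (0.662) and Siglece (0.468). With CAF.CM plus antibody it was Cd33 (9.87), Siglece (3.17), Cd22 (1.83) and Siglec1 (0.600). With CAF.CM it was Cd33 (20.5), Siglece (6.94), Siglec1 (3.80), Cd22 (2.57) and Siglecf (0.0736). In control medium it was Cd33 (14.4), Cd22 (10.7), Siglecf (4.38), Siglec1 (2.70) and Siglece (0.886). The counting intervals of neighbours in these orders did not overlap in any of the 4 libraries, but without replicates the spread between cultures is unknown. These intervals hold no error for transcript length, and whether the longest transcript is the one expressed was not checked. Siglece was thus last per kilobase with Wnt2 and in control medium and second in both CAF.CM libraries.

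Cd33 supplied 71.5% of the reads of listed members with Wnt2, 76.9% with antibody, 71.2% with CAF.CM and 53.1% in control medium. The share of Cd22 was 18.7%, 9.91%, 6.19% and 27.4% in the same libraries, and that of Siglece was 0.576%, 7.97%, 7.77% and 1.06%. The largest exact binomial interval among these 12 shares was that of Cd33 with antibody, 74.8% to 78.9%. The summed level of the 4 members with values everywhere was 148.5 CPM with Wnt2, 73.5 CPM with antibody, 164.9 CPM with CAF.CM and 143.9 CPM in control medium. The antibody library was thus low in sum, while the other 3 libraries had similar sums of different make-up.

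**Figure D2:**
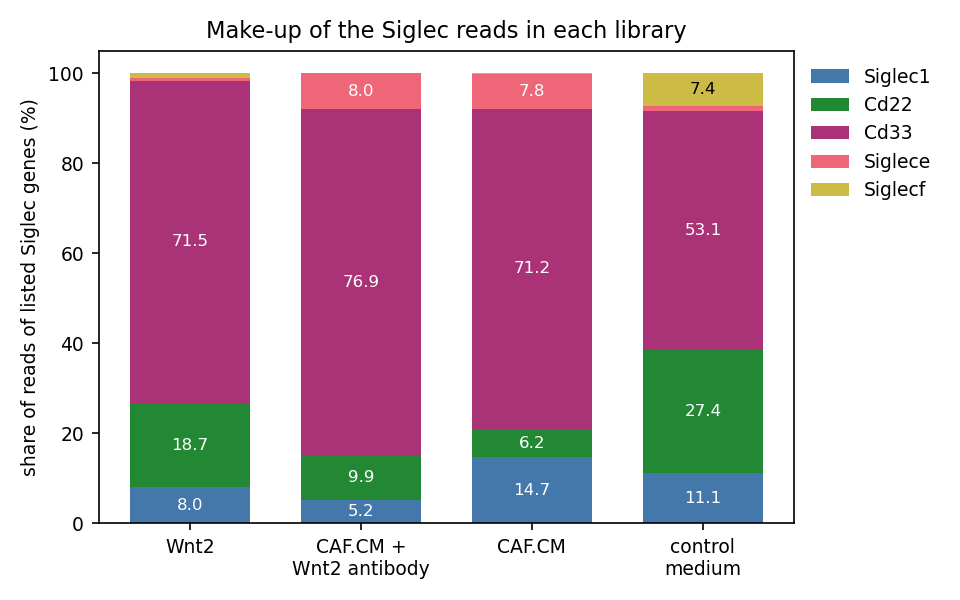
Share of the reads of listed Siglec genes (%) that each gene supplied, 1 bar per library. Cd33 takes 71.5% with Wnt2, 76.9% with antibody, 71.2% with CAF.CM and 53.1% in control medium, where Cd22 (27.4%) and Siglecf (7.36%) take larger shares than in any other library.

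The comparison of Wnt2 with control medium asks what Wnt2 targets in dendritic cells. Siglecf was the 1 member beyond 2-fold, 6.58-fold lower with Wnt2 than in control medium (log2 ratio -2.72, interval -2.92 to -2.54, 265 against 1618 reads). Of 13120 genes in this table, 26 had a lower ratio. Siglece was 1.88-fold lower (log2 ratio -0.91, interval -1.24 to -0.61), which does not reach the threshold. Cd22 had a log2 ratio of -0.60 (interval -0.66 to -0.54) and Siglec1 one of -0.52 (interval -0.61 to -0.43). Cd33 alone lay above control, at 0.38 (interval 0.35 to 0.42).

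Of 5 members listed in this comparison, 1 was lower and 0 were higher, where 2.93% of all listed genes were lower and 2.87% higher. The median ratio was -0.60 over the members and -0.02 over all genes. At 1.5-fold, 3 members were lower (Siglecf, Siglece and Cd22), where 8% of all genes were. Siglece reached 1 CPM in control medium alone, so that it was listed through the library where it is higher and its place in this count shows nothing further. Macrophage and monocyte markers moved the same way, with 6 of 14 lower and 1 higher (median -0.80), and their part in these ratios was not tested. In the authors' deposited table Siglecf had an adjusted p of 3.64e-29, Siglece 0.00372, Cd22 0.0284, Siglec1 0.077 and Cd33 0.243. The sources used here do not say how those p-values were obtained from 1 column per group.

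CAF.CM against control medium gave the widest spread among the members. Siglece was 7.73-fold higher with CAF.CM (log2 ratio 2.95, interval 2.72 to 3.22, 334 against 232 reads in libraries of unequal depth), and 121 of 13329 genes had a higher ratio. Siglecf was 53.1-fold lower, with a log2 ratio of -5.73 (interval -7.52 to -4.67), and 20 genes had a lower ratio. Cd22 was 4.16-fold lower (log2 ratio -2.06, interval -2.24 to -1.88).

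Cd33 and Siglec1 were each about as far above control as the other and stayed within 2-fold. Cd33 stood at 0.51 (interval 0.45 to 0.57) and Siglec1 at 0.49 (interval 0.37 to 0.62). Of 5 members, 1 was higher and 2 were lower, where 6.68% of all listed genes were higher and 8.69% lower, and the median was 0.49 over the members and -0.04 over all genes. Siglecf reached 1 CPM in control medium alone here, so that it was listed through the library where it is higher. Of 14 macrophage and monocyte markers 8 were lower and 2 higher (median -1.64), and their part in these ratios was not tested. The authors' deposited table gives adjusted p-values of 9.91e-43 for Siglecf, 1.61e-31 for Siglece, 5.88e-18 for Cd22, 0.0416 for Cd33 and 0.0612 for Siglec1.

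The third comparison asks what differs when the Wnt2 antibody was added to CAF.CM first. Siglec1 was 6.22-fold lower with antibody than with CAF.CM alone (log2 ratio -2.64, interval -3.00 to -2.34, 89 against 632 reads), and 15 of 13072 genes had a lower ratio. Siglece was 2.17-fold lower, at a log2 ratio of -1.12 (interval -1.43 to -0.84). Cd33 was 2.08-fold lower, at a log2 ratio of -1.06 (interval -1.15 to -0.96). For both, the counting interval crosses the 2-fold line. Cd22 was within 2-fold, at -0.48 (interval -0.78 to -0.20).

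All 4 listed members thus had a ratio below 0. Of them 3 were called lower and 0 higher, where 3.65% of all listed genes were lower and 1.02% higher, and the median was -1.09 over the members and -0.04 over all genes. Siglecf is not listed, and CAF.CM alone held only 5 reads of it. Of those 14 markers 5 were lower and 0 higher with antibody (median -0.85), and their part in the ratio of Siglec1 was not tested. The authors' deposited table gives adjusted p-values of 1.43e-21 for Siglec1, 4.2e-05 for Cd33, 0.000338 for Siglece and 0.266 for Cd22. The share of reads in protein-coding genes was 72.4% with antibody and 75.8% with CAF.CM, against 80.1% with Wnt2 and 81.2% in control medium, and its part in these ratios was not tested.

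The antibody library can also be set beside control medium, because the libraries that appear in 2 tables hold identical values in both. Siglece was 3.54-fold higher than in control medium (log2 ratio 1.82, interval 1.52 to 2.15). Siglec1 was 4.47-fold lower than in control medium (log2 ratio -2.16, interval -2.49 to -1.86), although with CAF.CM alone it was above control. Cd22 was 5.83-fold lower (log2 ratio -2.54, interval -2.78 to -2.33). Cd33 stood at -0.54 (interval -0.63 to -0.46), below control medium, whereas with CAF.CM alone it was above it. Of these 4 members, 1 was higher and 2 were lower, where 8.1% of 12882 genes were higher and 12.6% lower. Of 14 macrophage and monocyte markers 9 were lower and 2 higher (median -2.58), and the protein-coding share of reads was 72.4% with antibody and 81.2% in control medium. The part of either in these ratios was not tested. This comparison shares a library with both comparisons that involve CAF.CM, so they are not independent of each other.

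**Figure D3:**
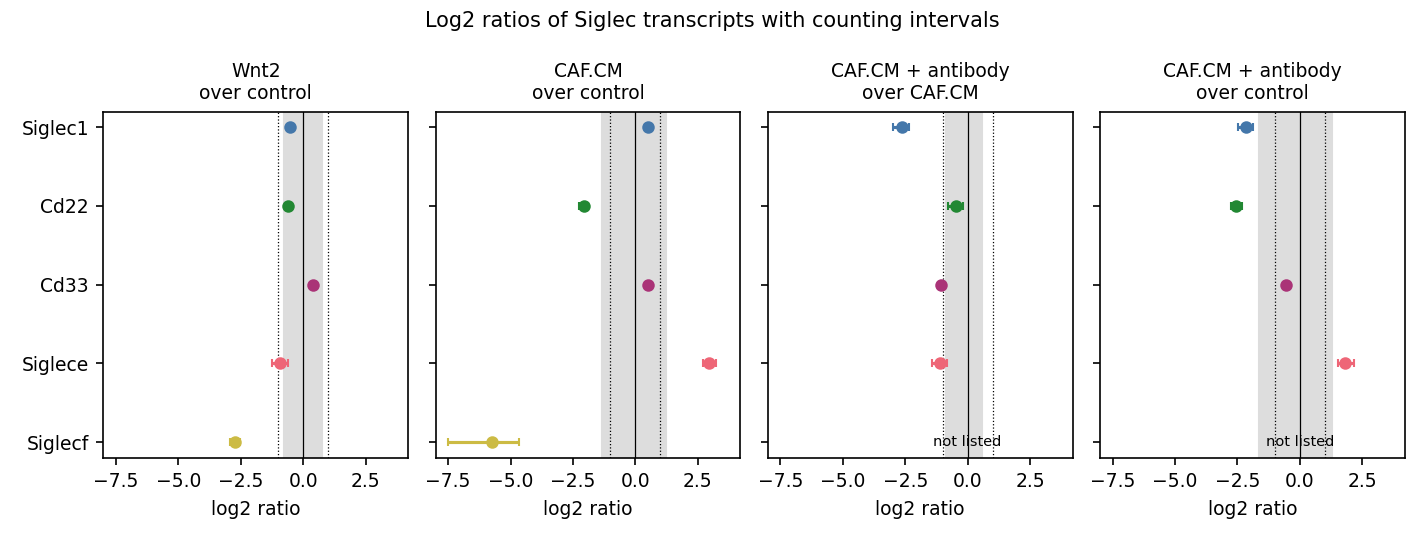
Log2 ratio of each listed Siglec gene in 4 comparisons, named above each panel with the first library over the second, with bars for the exact 95% counting interval. Grey bands hold the middle 90% of all listed genes and dotted lines mark 2-fold; Siglece lies right of the band with CAF.CM (2.95), Siglecf far left of it (-5.73), and Siglec1 left of it with antibody (-2.64).

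Siglec1 was set beside 23 listed interferon-stimulated genes, since it is known to be induced by interferon. With CAF.CM 20 of the 23 were higher than in control medium and 0 lower, with a median ratio of 2.08, where Siglec1 stood at 0.49. Irf7 (3.73), a transcription factor of the interferon response, and Rsad2 (3.67), an antiviral enzyme, led them, followed by Oasl1 (3.56) and Ifit2 (3.498). With antibody 13 of the 23 were lower than with CAF.CM and 0 higher, with a median of -1.15, where Siglec1 stood at -2.64. Set against control medium, the antibody library had 12 of the 23 higher and 0 lower, with a median of 1.04. Siglec1 stood at -2.16 there, below control medium. Some genes of the list also lay below control medium, within 2-fold, the lowest at -0.77. In the comparison of antibody with CAF.CM the lowest of the list were Rtp4 (-2.20), Ifit2 (-2.17), Ifi44 (-2.14) and Ifit3 (-2.06), so that Siglec1 lay below every listed gene of it there. With Wnt2 6 of the 23 were lower than in control medium and 0 higher, with a median of -0.28, led by Ifit3 (-1.80), Cmpk2 (-1.43), Ifit2 (-1.25) and Ifit1 (-1.099). Here Ifit3 and Cmpk2 reached 1 CPM in control medium but not with Wnt2, so that they were listed through the library where they are higher. Ifit3 shares 61.8% of its 31-base words with other genes, so its reads are uncertain.

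The genes with the most similar pattern were sought by the Euclidean distance of 3 log2 ratios (Wnt2 and CAF.CM against control, antibody against CAF.CM) among 9487 protein-coding genes that reached 5 CPM. These ratios share the control and CAF.CM libraries, and the distances are a description of 4 libraries. Nearest to Siglece were Ifi211 (distance 0.20), Ifi206 (0.61) and Ifit1 (0.66). Ifi211 stood at -1.07, 2.85 and -1.05 in the 3 comparisons, where Siglece stood at -0.91, 2.95 and -1.12, but it shares 55.0% of its words with other genes of its family and its reads are uncertain. Nearest to Siglec1 were Samd9l (1.03), Ifi203 (1.14) and Ceacam15 (1.23), at larger distances than the nearest genes of the other 3 members. Nearest to Cd22 were Pgap1 (0.09), Tgfbr1 (0.14) and Flna (0.14), and nearest to Cd33 were Zfp658 (0.22), Gstt3 (0.23) and Zfp976 (0.29). The reads of Ifi206 and Zfp976 are uncertain too, since they share 27.2% and 38.5% of their words with other genes.

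Zfp658, a zinc finger gene, lies between Cd33 and Siglece in the cluster on chromosome 7. From Siglecf to Siglece the annotation has 23 genes, of which 6 were listed, 3 of them Siglecs and the others Etfb, Zfp658 and Zfp719. With antibody all 5 of those listed lay below CAF.CM, at -0.50 for Etfb, -1.06 for Cd33, -1.02 for Zfp658, -0.72 for Zfp719 and -1.12 for Siglece. The median over all genes was -0.04 in this comparison, so that a ratio below 0 was common there. With CAF.CM the listed genes of the cluster did not move together. Siglecf stood at -5.73, Etfb at -0.68, Cd33 at 0.51, Zfp658 at 0.33, Zfp719 at 0.77 and Siglece at 2.95. Etfb shares 68.0% of its words with an overlapping gene, so its value is uncertain.

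Mag, a further Siglec known from myelin-forming cells, lies next to Cd22. It had 3.53 CPM with Wnt2, 1.94 CPM with antibody, 2.96 CPM with CAF.CM and 7.55 CPM in control medium, and it was lower than control with Wnt2 (log2 ratio -1.09) and with CAF.CM (log2 ratio -1.34). As for Cd22, control medium was the highest library and the antibody library the lowest. Siglec15, the other Siglec gene looked for, was not listed. Sequence sharing was low for most members, with 0% of the 31-base words of Siglec1, 0.970% of Siglecf, 1.0995% of Siglece and 1.56% of Cd33 found in another gene. It was 13.8% for Cd22, mainly through the overlapping gene Gm29439, which was not listed.

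Cell types known for single Siglecs were checked through their markers. B cell markers were listed in 0 of 10 cases, Cd79a, Cd79b, Ms4a1 and Pax5 among those missing, while Cd22 had 42.6 CPM in control medium. Of 10 eosinophil markers 1 was listed, Ear2, at 0.625 CPM with Wnt2, 3.23 CPM with antibody, 2.27 CPM with CAF.CM and 5.09 CPM in control medium. Prg2, Epx, Il5ra and Ccr3 were not listed, while Siglecf had 11.4 CPM in control medium. Ear2 shares 60.5% of its words with other genes.

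Alveolar macrophage markers were listed in 8 of 10 cases, and 5 of 7 in the Wnt2 table were lower with Wnt2 (median -2.67). Of the lower ones, Ear2, Marco and Pparg reached 1 CPM in control medium but not with Wnt2. They were thus listed through the library where they are higher, and their place in this count shows nothing further. With CAF.CM 4 of 7 were lower and 2 higher, with Pparg again listed through control medium. The part of these markers in the ratios of Siglecf was not tested. Their summed level, mostly Chil3, was 3283 CPM with Wnt2, 7011 CPM with antibody, 7198 CPM with CAF.CM and 3480 CPM in control medium, and Ear2 and Itgax of this list also stand in other lists. Of 10 plasmacytoid dendritic cell markers 7 were listed, Tcf4 and Bst2 the most abundant, while Siglech, a DAP12-paired receptor of those cells, was not. Neutrophil markers were listed in 5 of 14 cases, summing to 1563 CPM with Wnt2, 115.8 CPM with antibody, 167.4 CPM with CAF.CM and 607.0 CPM in control medium. Mmp8 made up most of each sum, and the part of neutrophils in the level of Siglece was not tested. Mast cell and basophil markers summed to between 1.34 and 12.3 CPM, and T and NK cell markers to between 2.42 and 5.98 CPM in the 3 libraries where any was listed. Of 10 fibroblast markers 7 were listed, summing to 15.4 CPM with Wnt2, 65.5 CPM with antibody, 39.3 CPM with CAF.CM and 15.8 CPM in control medium. Col5a1, a collagen gene, had 6.37, 49.1, 23.6 and 5.12 CPM in the same libraries, and Dcn, the decorin gene, had 1.009, 13.9, 10.7 and 0.509 CPM. The fibroblast sum was thus higher in both CAF.CM libraries and highest with antibody, mostly through Col5a1 and Dcn. Against control medium, 2 of 5 markers were higher with CAF.CM and 1 was lower, Postn. Postn reached 1 CPM in control medium but not with CAF.CM, and Dcn with CAF.CM but not in control medium. With antibody 1 of 4 was higher than with CAF.CM and 1 lower, on 51 reads over both libraries. That lower gene reached 1 CPM with CAF.CM but not with antibody. These genes were thus listed through the library where they are higher, and their place in these counts shows nothing further. Col1a1, Lum and Pdgfra were not listed. The part of these markers in the ratios of the Siglecs with CAF.CM and with antibody was not tested.

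Most signalling partners of Siglecs were within 2-fold in the 3 deposited comparisons. All 14 adaptor, phosphatase and kinase genes were listed. With Wnt2 0 of 14 were beyond 2-fold in either direction (median -0.09). With CAF.CM 3 were lower and 0 higher (median -0.39), among them the kinase gene Fgr (-1.70) and the adaptor gene Shc1 (-1.14, with 18.0% of its words shared). With antibody 2 were lower than with CAF.CM and 0 higher (median -0.21), Fgr (-1.23) among them.

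Tyrobp, which encodes DAP12, had 438.5 CPM with Wnt2, 398.9 CPM with antibody, 420.0 CPM with CAF.CM and 541.2 CPM in control medium. Ptpn6, the SHP-1 gene, had 118.1, 52.1, 81.1 and 125.4 CPM in the same libraries, and Ptpn11, the SHP-2 gene, 82.1, 62.2, 64.98 and 87.0 CPM. Both phosphatase genes were thus lowest with antibody, with ratios to CAF.CM of -0.64 for Ptpn6 (interval -0.74 to -0.54) and -0.06 for Ptpn11 (interval -0.17 to 0.04).

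Genes that make, attach or remove the sugar that Siglecs bind were looked at next. Of 9 genes of sialic acid synthesis and transport, 0 were beyond 2-fold with Wnt2 (median -0.28), and 1 was lower with CAF.CM (median -0.49). That gene was Cmah (-1.02, interval -1.47 to -0.61), whose enzyme makes the sialic acid form preferred by mouse CD22, and 15.5% of its words are shared with other genes. With antibody 1 of 9 was lower than with CAF.CM (median 0.06), on fewer than 100 reads.

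Sialyltransferases attach sialic acid to sugar chains, and 11 of 20 were listed. With Wnt2 2 were lower and 0 higher (median -0.28), the ganglioside synthase genes St3gal5 (-1.42, interval -1.54 to -1.30) and St8sia1 (-1.28, interval -1.50 to -1.07). With CAF.CM 0 of 11, and with antibody 0 of 10, were beyond 2-fold, with medians of -0.18 and -0.08. St6gal1, which makes the sugar linkage bound by CD22, had 101.5 CPM with Wnt2, 54.8 CPM with antibody, 82.1 CPM with CAF.CM and 142.6 CPM in control medium. St6gal1 and Cd22 had the same order of libraries, lowest with antibody, then CAF.CM, then Wnt2, and highest in control medium. Mag, Ptpn6 and the summed macrophage and monocyte markers, mostly Lyz2, had this order too, so it is not particular to this pair.

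Of 6 genes for sialidases and sialic acid O-acetylation 4 were listed, with 0 beyond 2-fold with Wnt2. Casd1, the sialic acid O-acetyltransferase gene, was the 1 lower gene with CAF.CM (-1.36, interval -1.52 to -1.21), and it was lower again with antibody than with CAF.CM (-1.41, interval -1.73 to -1.12). Its levels were 43.8 CPM with Wnt2, 5.17 CPM with antibody, 13.9 CPM with CAF.CM and 35.6 CPM in control medium.

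Among 5 listed counter-receptors of Siglecs, Spn, which encodes the Siglec1 ligand CD43, was lower with Wnt2 (-1.21, interval -1.32 to -1.095), and 0 were beyond 2-fold with CAF.CM. Cd24a, a ligand of Siglec-G and in humans of Siglec-10, was the 1 gene higher with antibody than with CAF.CM (1.399, interval 1.28 to 1.53). It had 41.7 CPM with Wnt2, 74.9 CPM with antibody, 28.3 CPM with CAF.CM and 22.9 CPM in control medium, while the receptor gene Siglecg was not listed.

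Other ITIM receptors of myeloid cells were listed in 16 of 16 cases. The list also counts Lilr4b, a relative of the ITIM receptor gene Lilrb4a whose own product lacks ITIMs. With Wnt2 4 were lower and 1 higher (median -0.23), the higher one being Fcgr2b (1.07), which was named after its value was seen, and the lowest being Clec12a (-5.19), Lair1 (-2.28), Cd72 (-1.34) and Lilr4b (-1.18). With CAF.CM 7 were lower and 0 higher (median -0.76), led by Clec12a (-3.27), Cd300a (-1.65), Lair1 (-1.42) and Sirpa (-1.32), so that 0 of 16 joined Siglece above 2-fold. With antibody 2 were lower than with CAF.CM and 0 higher (median -0.41), Clec12a (-2.21) and Lair1 (-1.35). Cd72 overlaps Tesk1 on the other strand and shares 54.6% of its words, and Lilr4b shares 26.6% with its copies, so both values are uncertain. Lilrb4a was counted within 2-fold in each of these comparisons, through its more abundant entry. A second entry of that gene, left out of the counts, had 160.7 CPM with Wnt2 and 168.2 CPM with antibody. It had 189.8 CPM with CAF.CM and 410.1 CPM in control medium. By these levels the second entry lay more than 2-fold below control medium with Wnt2 and with CAF.CM, unlike the counted entry.

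Other receptors that pair with DAP12 were listed in 9 of 9 cases with Wnt2 and 8 of 9 otherwise. The list also counts Cd300ld, whose product is known to pair with another adaptor, the Fc receptor gamma chain. With Wnt2 Trem1 (3.29) and Trem3 (2.64) were higher and Trem2 (-1.03) lower, with a median of 0.05 over the list. Trem3 had 0.382 CPM in control medium and was listed through Wnt2 alone, the library where it is higher. With CAF.CM 4 were lower and 0 higher, Cd300ld (-2.66), Cd300lb (-2.13), Sirpb1a (-1.85) and Trem2 (-1.02), with a median of -0.94. With antibody 4 were lower than with CAF.CM and 0 higher, Sirpb1a (-1.53), Clec5a (-1.46), Pilrb1 (-1.03) and Pilrb2 (-1.01), with a median of -0.99. Sirpb1a, Pilrb1 and Pilrb2 share about as many words with their copies as not (48.4%, 50.1% and 49.3%), so their values are uncertain. Cd33, which can pair with DAP12 in the mouse, was above control medium with both Wnt2 and CAF.CM, by 0.38 and 0.51 on the log2 scale.

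**Figure D4:**
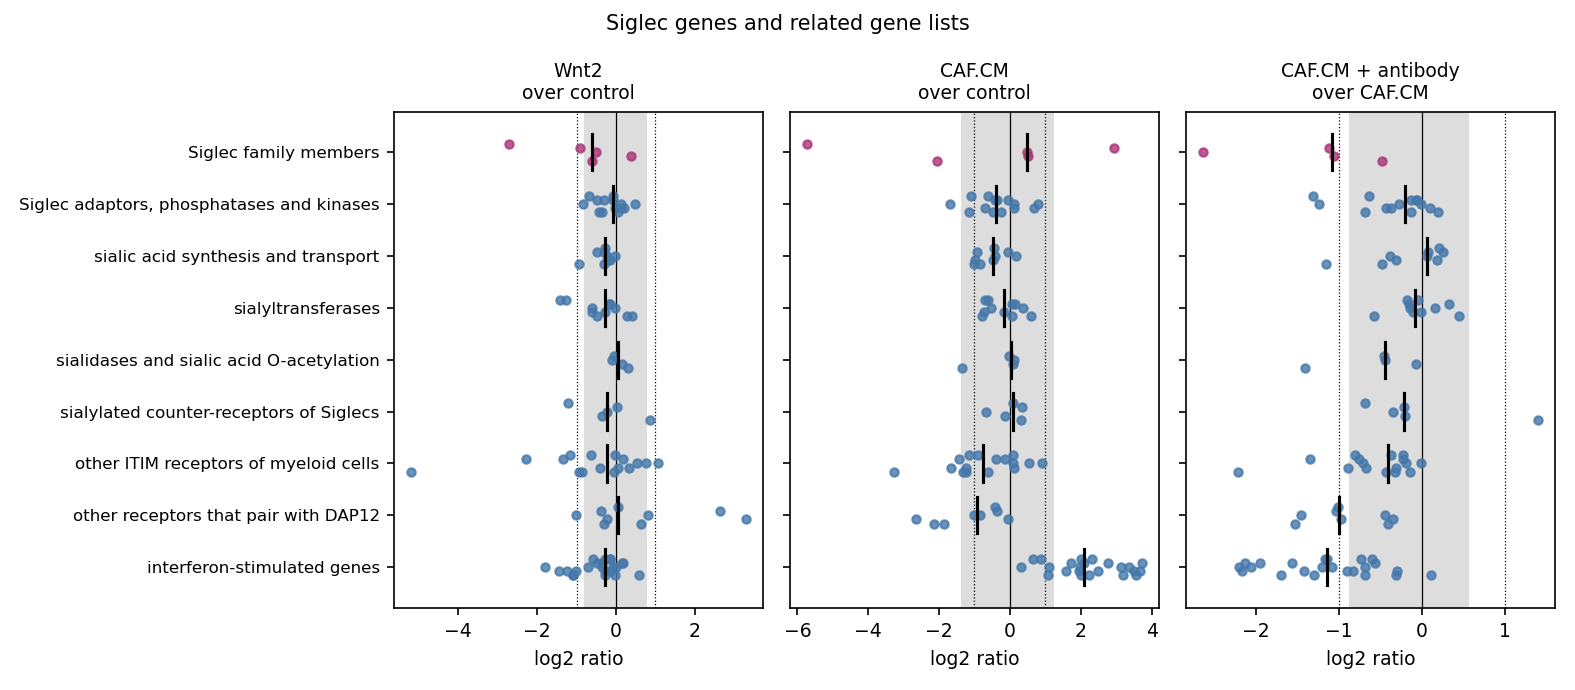
Log2 ratios of single genes (points) by gene list in 3 comparisons, named above each panel with the first library over the second, with black bars for list medians, grey bands for the middle 90% of all listed genes and dotted lines at 2-fold. The Siglec genes spread from -5.73 to 2.95 with CAF.CM, while sialyltransferases all lie within 2-fold there and interferon-stimulated genes centre on 2.08.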

How the data were processed

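The deposited library columns hold CPM, normalized by the authors and not log transformed, in 3 tables. Per the file headers, log2 fold changes and p-values of the authors stand in the same tables. The submitters' processing notes name STAR 2.4.2a, RSEM 1.2.29 and edgeR, with the builds mm10 and GRCm38.p5, and the sources used here do not give the settings. Libraries were stranded, made from 1 ug of total RNA after removal of ribosomal RNA, per the labels' protocols.

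Nearly all CPM values were whole multiples of 1 step per library (at least 99.96% within 0.1 step), and reads were recovered from these steps. Log2 ratios were computed on whole tables in Python 3.11.15 with the formula of edgeR (prior count 2, the authors' scaling). They were checked against edgeR 4.0.16 in R 4.3.3. Intervals were computed with scipy 1.17.1. No count test with p-values was run, since 1 library per group leaves no spread. The steps were tested on simulated data. Libraries in 2 tables held identical values for 12954 of 12954 (control) and 12848 of 12848 genes (CAF.CM).

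Members and gene lists were chosen with earlier results of these data known. Named list genes are up to 4 beyond 2-fold per list and comparison, by size, with at least 100 reads over both libraries. The level of Tyrobp, Ptpn6, Ptpn11 and St6gal1, and the cluster neighbours, are not covered by it and were picked with their values in view, as were the promoters and motifs. Positions and transcripts came from GENCODE M21, and promoters, matched for 6 of 7 members (Siglec1 had no entry), from RefSeq GRCm38.p6. Alternatives were total reads, TMM, DESeq2 1.42.0 size factors, prior counts of 0.5 and 5, a minimum of 100 reads, the deposited fold changes and a 1.5-fold threshold. Some genes of these lists are counted but not reported here by name.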

Additional observations from a re-analysis of the deposited data

How the results depend on the processing

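All 18 member ratios kept their sign under every alternative tried, and every call at 2-fold was kept. With a 1.5-fold threshold the number of members lower with Wnt2 was 3 in place of 1, where 8% of all genes were lower by that much. Siglece, 1 of the 3, was listed through control medium alone. Of 140 alternative ratios 1 left its counting interval, that of Cd33 with CAF.CM under total reads (0.57). The minimum of reads and the 1.5-fold threshold do not recompute a ratio. Their values among the 140 could therefore neither leave an interval nor change sign, and they show nothing about stability. The scaling moved the median of all genes by less than 0.1 on the log2 scale. The widest range was that of Siglecf with CAF.CM, -5.88 to -5.51, on 5 reads. Depth limits the antibody library most, where Siglec1 had 89 reads, and Siglecg, Siglech and, there, Siglecf have no value. No paired analysis was possible because each group has 1 library, and no replicate could be left out for the same reason.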
